A study of Mus musculus with 9 samples.

Results

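Microtubules in the mouse are built from dimers of an alpha and a beta tubulin, and each chain comes from a small family of genes whose products are called isotypes. This account covers 10 of these genes, the alpha tubulins Tuba1a, Tuba1b, Tuba1c, Tuba4a and Tuba8 and the beta tubulins Tubb2a, Tubb2b, Tubb4b, Tubb5 and Tubb6, out of 24421 gene symbols counted in liver. The genes were chosen by name with their read counts and fold changes in this same comparison already known, so their own differences are given as a description, and no test is drawn on for them. RNA from whole liver of C57BL/6J mice aged 5 weeks was sequenced in 9 libraries, of which 5 came from wild-type control littermates (WT) and 4 from mice in which OGT had been deleted (OGT-deficient). Ogt encodes O-GlcNAc transferase, which places N-acetylglucosamine on nuclear and cytoplasmic proteins. All mice had gone without food for 6 h, and both sexes were used. Neither the sex of individual mice nor the promoter or method behind the removal of OGT is given in the sources used here, which limits what the OGT-deficient group stands for as a model. The stated mouse numbers per group match the library numbers, and every library is treated as 1 mouse.

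Tubulin isotypes differ most in their last residues, an acidic tail that lies on the surface of the microtubule and carries most of the modifications that motors and severing enzymes read. In most cells the amount of tubulin mRNA is set by autoregulation, in which free tubulin dimers trigger the decay of the mRNAs being translated. Tuba1b, Tuba1c, Tubb5 and Tubb4b are widely expressed, and Tubb4b is also a component of ciliary axonemes. Tuba1a, Tubb2a and Tubb2b are best known from brain, Tuba4a is known for a coding sequence that lacks the terminal tyrosine codon of most alpha tubulins, Tuba8 is a divergent alpha tubulin, and Tubb6 is a low-abundance beta tubulin of many tissues. Hepatocytes use microtubules for secretion and for traffic to the bile canaliculus.

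Between 32337861 and 54130901 reads per library were assigned to genes. Ogt itself stood at 61.6 ± 10.4 CPM in WT (counts scaled to library size; SD, n = 5) and at 16.9 ± 2.70 CPM (SD, n = 4) in OGT-deficient liver, with ranges of 51.1 to 73.1 and 14.3 to 20.6 CPM that did not overlap. Hepatocyte markers were abundant in every library. The 8 genes summed to 101411 to 119371 CPM in WT libraries, against 46024 to 58494 CPM in OGT-deficient libraries, with 6 falling and 0 rising. In such whole-tissue RNA, fewer cells of a type and less RNA per cell cannot be told apart. The comparison was broad, since 61.1% of the 14104 genes tested passed an adjusted p of 0.05 in edgeR's quasi-likelihood test, 31.6% higher and 29.4% lower in OGT-deficient liver. With upper-quartile scaling, 62.5% of the calls were higher, against 51.8% with the scaling used here.

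The tubulin genes resemble each other closely, and that bears on every count below. The 3 Tuba1 genes lie together on chromosome 15 (GRCm38, GENCODE M21): Tuba1b at chr15:98931425-98934565 and Tuba1a at chr15:98949837-98953703, both on the minus strand and 15271 bases apart, and Tuba1c at chr15:99029891-99038110 on the plus strand. Tubb2a at chr13:34074274-34078007 and Tubb2b at chr13:34126748-34130466 also neighbour each other, with a gap of 48740 bases and the same strand. The others stand alone, Tuba4a at chr1:75214228-75219865, Tuba8 at chr6:121210696-121226854, Tubb4b at chr2:25222160-25224702 and Tubb5 at chr17:35833921-35838306, and Tubb6 likewise has no tubulin neighbour in this set. Coding sequences were 98.3% identical between Tuba1a and Tuba1b, 97.9% between Tuba1b and Tuba1c, 97.1% between Tuba1a and Tuba1c, and 96.5% between Tubb2a and Tubb2b. Identity over all pairs was 78.7 to 98.3% within the alpha genes, 80.2 to 96.5% within the beta genes and 52.5 to 55.6% between the chains.

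The 60 coding bases before the stop codon are shown for 4 beta tubulins because they encode the tail in which isotypes differ. They are written 5′ to 3′ on the coding strand, and capitals mark bases that differ from Tubb2a after alignment of the whole coding sequences; bases that are missing against that gene are not marked. Each lies in a single exon.
Tubb2a, chr13:34074471-34074530, minus strand: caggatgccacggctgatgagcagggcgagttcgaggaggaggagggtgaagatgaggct
Tubb2b, chr13:34127474-34127533, minus strand: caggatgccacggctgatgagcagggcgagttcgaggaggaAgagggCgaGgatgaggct
Tubb4b, chr2:25222311-25222370, minus strand: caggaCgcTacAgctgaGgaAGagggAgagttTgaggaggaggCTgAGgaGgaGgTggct
Tubb5, chr17:35834985-35835044, minus strand: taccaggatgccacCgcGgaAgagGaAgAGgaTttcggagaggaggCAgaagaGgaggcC
Over these bases Tubb2b departs from Tubb2a at 3 positions, whereas Tubb5 carries 12 marked bases and Tubb4b 15.

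Differences between Tubb2a and Tubb2b are unevenly spread. Of 1335 coding bases 47 differ, 43 of them before coding base 610 and 4 after base 1160, and the 551 bases in between are identical. The window of 60 bases with most differences is shown with the differing bases in capitals, followed by the first 60 bases of the identical run, which are the same letters in both genes.
Tubb2a, most differences, chr13:34076592-34076651, minus strand: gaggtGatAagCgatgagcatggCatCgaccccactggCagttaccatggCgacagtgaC
Tubb2b, most differences, chr13:34129289-34129348, minus strand: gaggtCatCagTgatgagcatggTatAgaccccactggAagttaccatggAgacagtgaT
Tubb2a and Tubb2b, start of the identical run, chr13:34075137-34075196 and chr13:34128140-34128199, minus strand: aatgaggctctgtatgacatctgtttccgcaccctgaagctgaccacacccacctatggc
A read inside the identical run cannot be placed in either gene alone, while a read over the first window can.

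Reads that aligned to more than 1 place were set apart by the counting and entered no gene. Of all stretches of 50 bases in the longest transcript, 83.1% in Tuba1b, 75.5% in Tuba1a and 61.0% in Tuba1c also occurred in a transcript of another gene, mostly the other Tuba1 genes and processed pseudogenes. For Tubb2a the share was 49.6%, with 45.6% found in Tubb2b and 18.8% in the pseudogene Tubb2a-ps2, and for Tubb2b it was 39.3%, with 33.4% found in Tubb2a. In Tubb4b 55.5% were shared, nearly all with processed pseudogenes such as Tubb4b-ps1. Tubb5 at 0.115% and Tubb6 at 0 shared almost nothing. The 48.8% of Tuba4a and 14.7% of Tuba8 are of another kind, since 47.7% and 14.5% matched genes on the opposite strand of the same locus, Stk16 and Gm15856, with which a count without strand would also be confused. Levels of the Tuba1 genes, Tubb2a, Tubb2b, Tubb4b and Tuba4a are therefore uncertain. Non-unique alignments per assigned count also lay in separate ranges, at 0.314 to 1.02 for WT, against 0.205 to 0.224 in OGT-deficient libraries, and their part in the tubulin counts was not tested.

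**Figure D1:**
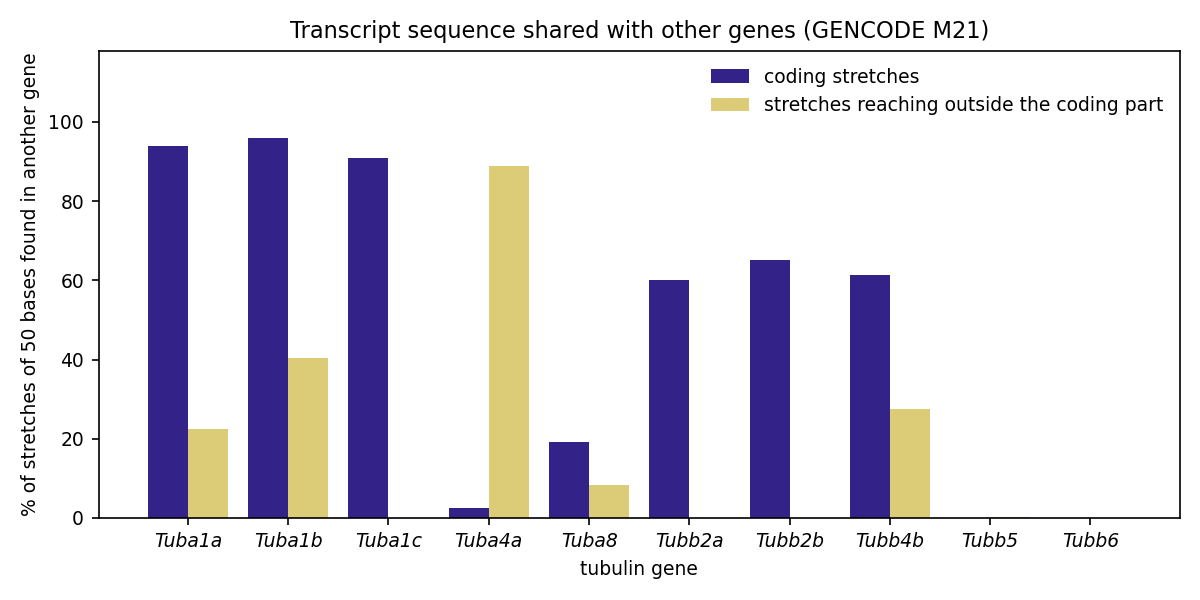
Percent of all stretches of 50 bases in the longest transcript of each tubulin gene that also occur in another gene, for stretches within the coding sequence and for stretches that reach outside it. Coding stretches of Tuba1a, Tuba1b and Tuba1c are shared above 90%, those of Tubb2a, Tubb2b and Tubb4b at about 60 to 65%, and Tubb5 and Tubb6 sit at or near 0; the tall outer bar of Tuba4a is its overlap with Stk16.

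As a description of the choice, 9 of the 10 tubulin genes, without Tubb5, lay among the 31.6% of tested genes that passed the threshold as higher in OGT-deficient liver. In 8 the OGT-deficient libraries all lay above the WT libraries in TMM-scaled CPM, as did 26.2% of tested genes. Of all tested genes 51.3% stood apart in either direction. In 7 of the tubulin genes the fitted fold was at least 2, as in 15.1% of tested genes. The median log2 fold change over the 10 was 1.35, against 0.0218 over all tested genes. Nothing is read from these shares because the same comparison chose the genes. All 10 passed the filter on low counts, Tubb2b only through its OGT-deficient libraries.

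Among the beta tubulins, Tubb2a was a minor transcript in WT and led in OGT-deficient liver. Levels of the gene in WT libraries 1 to 5 were 21.1, 22.3, 21.2, 11.3 and 13.1 CPM, and OGT-deficient libraries 1 to 4 held 422, 247, 364 and 501 CPM. The lowest OGT-deficient library lay far above the highest WT library, and within WT the libraries 4 and 5 were the low ones. The group means were 17.8 ± 5.17 (SD, n = 5) and 383.3 ± 106.8 CPM (SD, n = 4), a 21.5-fold ratio and a log2 fold change of 4.42 (SE 0.25).

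Tubb2b, the neighbour of Tubb2a, was near absent in WT. WT libraries 1 to 5 held 0, 4, 3, 5 and 0 of its reads, and OGT-deficient libraries 1 to 4 held 1551, 276, 751 and 928. On the CPM scale it stood at 0.0683 ± 0.0722 (SD, n = 5) and 19.2 ± 11.1 (SD, n = 4). The OGT-deficient libraries spread widely, from 6.96 CPM in library 2 to 32.7 CPM in library 1, and the fitted log2 fold change of 8.19 (SE 0.60) rests on very few WT reads. Per length, Tubb2b amounted to 0 to 1.14% of Tubb2a in WT libraries and to 2.08 to 5.72% in OGT-deficient libraries. These ranges did not overlap. OGT-deficient 2 was the lowest of its group for Tubb2a, Tubb2b, Tubb4b, Tubb5, Tubb6 and Tuba1c alike.

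Levels of Tubb4b in WT libraries 1 to 5 were 64.9, 81.7, 72.3, 56.8 and 73.8 CPM, and OGT-deficient libraries 1 to 4 held 211, 146, 191 and 201 CPM. All 4 OGT-deficient libraries were higher, with means of 69.9 ± 9.45 (SD, n = 5) and 187.4 ± 28.7 CPM (SD, n = 4) and a log2 fold change of 1.42 (SE 0.12). Tubb6 showed a smaller difference without overlap, from a range of 12.8 to 20.5 CPM in WT to 23.3 to 29.3 CPM in OGT-deficient liver, with a log2 fold change of 0.75 (SE 0.14).

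Tubb5, a widely expressed beta tubulin, was the exception. Levels of the gene in WT libraries 1 to 5 were 107, 103, 95.9, 79.1 and 77.8 CPM, and OGT-deficient libraries 1 to 4 held 100.6, 91.0, 116 and 109 CPM. The groups overlapped, with means of 92.5 ± 13.5 (SD, n = 5) and 104.1 ± 10.7 CPM (SD, n = 4) and a log2 fold change of 0.17 (SE 0.11). This overlap is on the TMM scale, which places OGT-deficient libraries lower relative to WT than library totals alone would. With upper-quartile scaling, which moved the median of all genes from 0.02 to 0.14 on the log2 scale, Tubb5 stood at 0.29. In that setting all 10 tubulin genes, Tubb5 included, passed as higher, as did 5435 of the 14104 tested genes.

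Among the alpha tubulins the largest relative difference was in Tuba8. Levels of the gene in WT libraries 1 to 5 were 6.26, 7.83, 4.82, 3.54 and 3.10 CPM, and OGT-deficient libraries 1 to 4 held 28.8, 41.0, 42.1 and 48.3 CPM. The groups were far apart, at 5.11 ± 1.96 (SD, n = 5) and 40.0 ± 8.14 CPM (SD, n = 4), a 7.84-fold ratio and a log2 fold change of 2.95 (SE 0.24). Library 1 was the low one of the OGT-deficient group, unlike in Tubb2b, where it was the high one.

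Levels of Tuba1b in WT libraries 1 to 5 were 31.6, 36.0, 30.7, 24.3 and 25.3 CPM, and OGT-deficient libraries 1 to 4 held 61.8, 70.0, 79.1 and 85.0 CPM. Its means were 29.6 ± 4.83 (SD, n = 5) and 74.0 ± 10.2 CPM (SD, n = 4), with a log2 fold change of 1.32 (SE 0.13). The other members of its cluster differed by similar amounts, Tuba1a from 3.57 to 6.22 CPM in WT to 11.3 to 16.5 CPM in OGT-deficient liver, and Tuba1c from 21.3 to 28.7 to 43.3 to 75.8 CPM. Their log2 fold changes were 1.38 (SE 0.16) and 1.15 (SE 0.15), and in all 3 genes the groups stood apart. These genes share most of their sequence, so the split of reads among them is uncertain.

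Tuba4a, the alpha tubulin with most reads in every library, differed least. Levels of the gene in WT libraries 1 to 5 were 105, 125, 124, 115 and 88 CPM, and OGT-deficient libraries 1 to 4 held 124, 133, 155 and 174 CPM. OGT-deficient 1 fell among the WT libraries, so the groups overlapped, at 111.6 ± 15.4 (SD, n = 5) and 146.2 ± 22.4 CPM (SD, n = 4). The log2 fold change was 0.39 (SE 0.12). As for Tubb5, the overlap is on the TMM scale. Without OGT-deficient 4 the log2 fold change was 0.27.

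**Figure D2:**
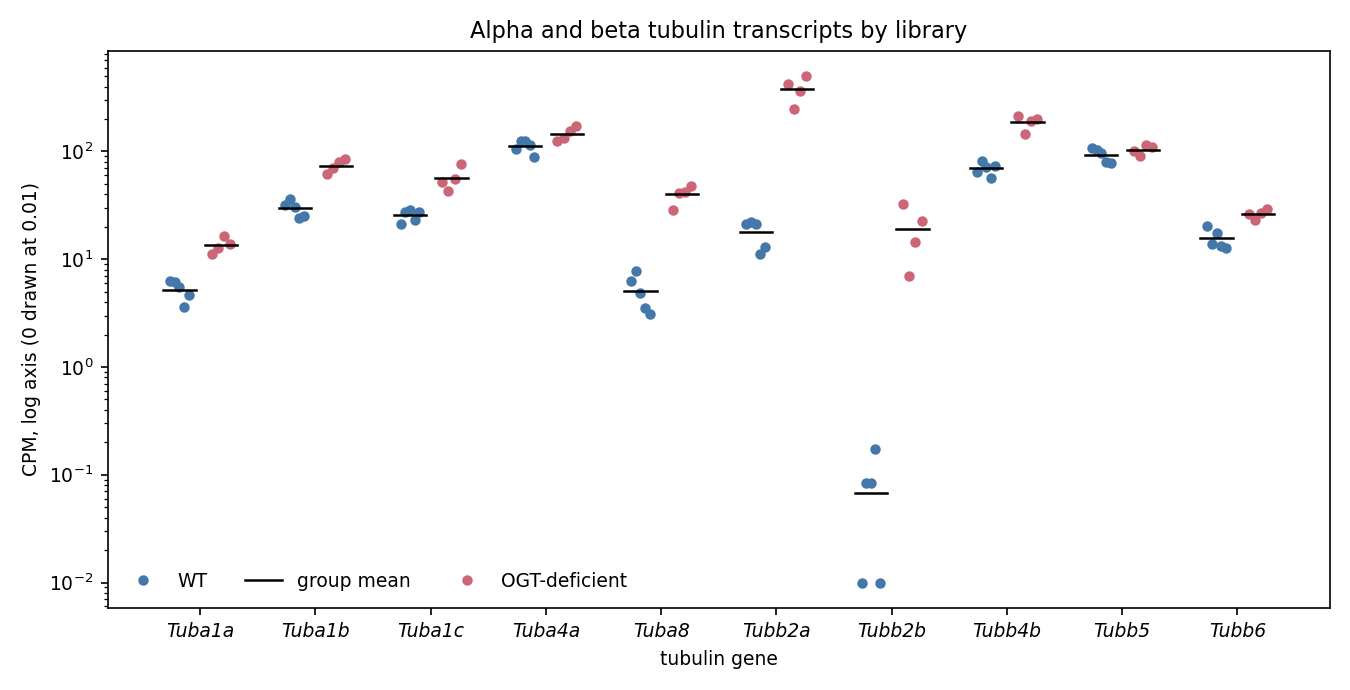
CPM of each tubulin gene in the 9 libraries, on a log axis with a value of 0 drawn at 0.01; points are libraries (WT left, OGT-deficient right) and lines are group means. Tubb2a and Tubb2b show the widest gaps, 17.8 against 383.3 CPM and 0.0683 against 19.2 CPM. On this TMM scale the points of Tubb5 and Tuba4a overlap.

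To compare genes with each other, levels were set per kilobase of the longest transcript (RPKM, the CPM divided by length). In WT the beta order was Tubb4b at 43.7 ± 5.91 RPKM, Tubb5 at 34.9 ± 5.10, Tubb2a at 11.1 ± 3.21, Tubb6 at 8.87 ± 1.92 and Tubb2b at 0.0313 ± 0.0331 RPKM (SD, n = 5). The ranges of Tubb4b and Tubb5 overlapped, as did those of Tubb2a and Tubb6. In OGT-deficient liver the order was Tubb2a at 238.1 ± 66.3, Tubb4b at 117.3 ± 18.0, Tubb5 at 39.3 ± 4.05, Tubb6 at 15.0 ± 1.41 and Tubb2b at 8.78 ± 5.08 RPKM (SD, n = 4). There the first 3 had ranges apart from each other, and Tubb6 and Tubb2b overlapped. Tubb2a thus went from the third to the first place.

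The alpha order in WT was Tuba4a at 39.3 ± 5.42 RPKM, Tuba1b at 17.0 ± 2.77, Tuba1c at 12.9 ± 1.66, Tuba1a at 2.89 ± 0.623 and Tuba8 at 2.26 ± 0.865 RPKM (SD, n = 5). Tuba1b overlapped Tuba1c, and Tuba1a overlapped Tuba8. In OGT-deficient liver Tuba4a at 51.5 ± 7.88, Tuba1b at 42.4 ± 5.86 and Tuba1c at 28.7 ± 6.91 RPKM formed a run in which each overlapped the next. Tuba8 at 17.7 ± 3.60 RPKM stood above Tuba1a at 7.54 ± 1.22 RPKM (SD, n = 4), and these stood apart.

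As a share of beta tubulin RPKM, Tubb2a held 12.4, 12.4, 12.6, 8.76 and 8.96% of WT libraries 1 to 5, and 56.7, 51.9, 55.0 and 61.5% of OGT-deficient libraries 1 to 4. Averaged, this gave 11.0 ± 1.97% (SD, n = 5) and 56.3 ± 4.04% (SD, n = 4). On this scale Tubb2a alone exceeded all other beta tubulins together in each of the 4 OGT-deficient libraries, whereas by reads alone its share in OGT-deficient 2 was 48.0%. Tubb2b held 0.0341 ± 0.0406% in WT and 1.99 ± 0.924% in OGT-deficient liver, also without overlap. Shares of the remaining 3 were lower, with Tubb4b at 44.5 ± 4.48% in WT and 28.4 ± 2.51% in OGT-deficient liver, Tubb5 at 35.4 ± 2.38 and 9.66 ± 1.74%, and Tubb6 at 9.01 ± 1.52 and 3.67 ± 0.580% (SD, n = 5 and 4). Their ranges did not overlap between groups, although the CPM of Tubb4b and Tubb6 was higher in OGT-deficient liver and that of Tubb5 overlapped.

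Alpha composition differed less. Tuba4a made up 52.8 ± 3.54% of alpha tubulin RPKM in WT (SD, n = 5) and 34.8 ± 0.233% in OGT-deficient liver (SD, n = 4), Tuba1b 22.8 ± 2.01 and 28.8 ± 1.04%, and Tuba8 2.98 ± 0.893 and 11.9 ± 1.34%, all without overlap. Tuba1a at 3.88 ± 0.697 and 5.13 ± 0.627% and Tuba1c at 17.5 ± 2.68 and 19.3 ± 2.54% overlapped. The share of Tuba4a varied little among the OGT-deficient libraries, at 35.0, 34.9, 34.9 and 34.5%.

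**Figure D3:**
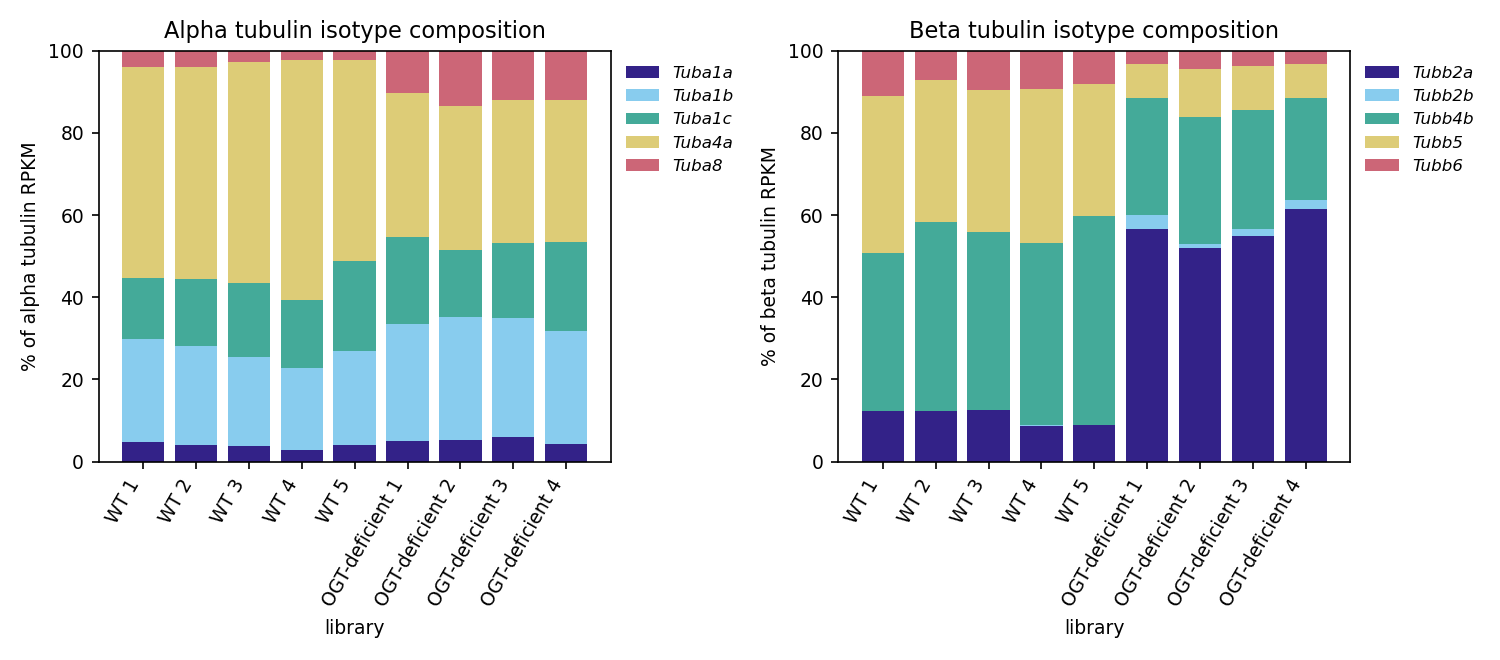
Share of each isotype in the summed alpha (left) or beta (right) tubulin RPKM of each library, as stacked bars that add to 100%. The Tubb2a segment fills 51.9 to 61.5% of beta tubulin in the OGT-deficient libraries and 8.76 to 12.6% in WT, while Tuba4a averages 52.8% of alpha tubulin in WT and 34.8% in OGT-deficient libraries.

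The composition depends on the length used, in part because much of several of these transcripts cannot take a uniquely placed read. In Tuba4a the stretches left out below mostly match Stk16 on the opposite strand of the same locus. Reads there align to 1 place and would be lost only to a count without strand, and strand use is not known. Leaving these stretches out shortens Tuba4a and raises its share. In this measure all reads of a gene were divided by its number of stretches of 50 bases found in no other gene. The reads themselves were not recounted. Tuba1b and not Tuba4a then led the alpha tubulins, at 44.7 ± 2.73% for WT (SD, n = 5) and 52.9 ± 1.44% in OGT-deficient liver (SD, n = 4). Tuba4a held 34.0 ± 3.26 and 20.9 ± 0.117%. With stretches of 100 bases Tuba4a led again in WT, at 41.6 ± 3.49% against 36.2 ± 2.62% for Tuba1b, while Tuba1b led in OGT-deficient liver at 44.4 ± 1.40% against 26.6% for Tuba4a. By reads alone Tubb5 and not Tubb4b led the beta tubulins of WT, at 47.2 ± 2.54 against 35.9 ± 4.05%. Tubb2a led OGT-deficient beta tubulin under each of the 5 length choices, at 52.6 to 62.3%, and held 8.92 to 13.9% in WT.

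Summed levels of both chains were higher in OGT-deficient liver. Alpha tubulins added up to 74.3 ± 8.92 RPKM in WT (SD, n = 5) and 147.9 ± 23.5 RPKM in OGT-deficient liver (SD, n = 4), a 1.99-fold ratio. Beta tubulins added up to 98.6 ± 12.9 and 418.5 ± 90.5 RPKM, a 4.24-fold ratio. Tubb2a accounted for 71.0% of the difference in beta tubulin RPKM, and 69.7 to 75.8% over the length choices. Leaving Tubb2a aside, beta tubulin was 87.6 ± 9.81 and 180.4 ± 26.1 RPKM, a 2.06-fold ratio. The ratio of beta to alpha RPKM came to 1.47, 1.30, 1.29, 1.15 and 1.44 for WT libraries 1 to 5, and to 3.71, 2.21, 2.64 and 2.85 for OGT-deficient libraries 1 to 4, without overlap. Its level depends on the length, at 0.735 and 1.71 over unshared stretches, and says nothing of protein amounts, which were not measured.

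The 250 bases before the start of Tubb2a and of Tubb4b are shown because these genes lead the beta tubulins of the OGT-deficient libraries. They come from RefSeq (GRCm38.p6), on the coding strand, and 8 of the 10 genes were searched, without Tubb2b and Tubb6. Capitals mark the letters searched on both strands: TATAAA, the core of a TATA box; CCAAT; and GGGCGG, a GC box, whose reverse complements are ATTGG and CCGCCC. No searched motif overlaps another.
Tubb2a, chr13:34078009-34078258, minus strand: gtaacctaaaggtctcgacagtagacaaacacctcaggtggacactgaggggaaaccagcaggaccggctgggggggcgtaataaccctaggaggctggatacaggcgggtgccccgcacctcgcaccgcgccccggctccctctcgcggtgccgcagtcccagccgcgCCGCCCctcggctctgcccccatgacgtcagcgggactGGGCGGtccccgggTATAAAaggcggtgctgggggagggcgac
Tubb4b, chr2:25224703-25224952, minus strand: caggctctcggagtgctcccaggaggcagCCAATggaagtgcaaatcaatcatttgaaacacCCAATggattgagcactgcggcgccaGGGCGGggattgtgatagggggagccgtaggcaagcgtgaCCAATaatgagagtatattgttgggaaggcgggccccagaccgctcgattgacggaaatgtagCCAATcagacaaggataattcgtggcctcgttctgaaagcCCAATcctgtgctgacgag
Tubb2a holds 1 TATAAA, 2 GGGCGG and no CCAAT, and Tubb4b 5 CCAAT, 1 GGGCGG and no TATAAA. Among 32851 promoter windows of the same length, 12.4% hold TATAAA, 33.8% CCAAT and 32.7% GGGCGG. These matches describe the letters only.

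The 6 other alpha and beta tubulin genes in the files gave few reads. Tuba3a, Tuba3b and Tubal3 had no read in any library. The platelet isotype Tubb1 stayed at 0 to 0.243 CPM, and Tubb3, the isotype used as a neuronal marker, at 0 to 0.114 CPM. Tubb4a, best known from myelinating glia, was the only 1 of the 6 with enough reads to test, and it rose from 0.497 ± 0.218 (SD, n = 5) to 1.93 ± 0.474 CPM (SD, n = 4), with a log2 fold change of 1.92 (SE 0.31) and an edgeR adjusted p of 0.000168.

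Genes that act on tubulin, together with the other alpha and beta tubulins above and the gamma and minor tubulins, were taken from 8 lists. Among their 102 genes 85 were tested, Tubb4a included. Of these 36 rose and 13 fell, 42.4 and 15.3%, against 31.6 and 29.4% of all tested genes, with a median log2 fold change of 0.19 against 0.02. With upper-quartile scaling 47 rose and 11 fell. Microtubule-associated proteins contributed 12 of these rises among 21 tested genes and modifying enzymes 9 among 18; the lists were not tested against each other.

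Folding of new tubulin needs prefoldin, the CCT chaperonin and cofactors that join the chains. Of 14 prefoldin and cofactor genes 5 rose and 1 fell. Tbcb, the cofactor that binds alpha tubulin, rose from 19.1 ± 1.74 (SD, n = 5) to 35.1 ± 1.44 CPM (SD, n = 4), with an edgeR adjusted p of 2.09e-06. The prefoldin subunits Pfdn1 and Pfdn2 rose from 27.9 ± 3.24 to 43.2 ± 3.89 CPM and from 40.4 ± 1.86 to 65.5 ± 14.5 CPM, with log2 fold changes of 0.63 and 0.70. Tbccd1, a cofactor C relative that acts at the centrosome, fell from 21.3 ± 0.526 to 14.4 ± 1.08 CPM with a log2 fold change of -0.57 (SE 0.079). The CCT subunits differed by small amounts, with 2 rising and 1 falling of 8. Cct8 rose from 141.7 ± 8.52 to 175.1 ± 9.08 CPM, Cct4 fell from 104.2 ± 13.0 to 78.8 ± 3.89 CPM, and Tcp1, with 109.5 ± 12.0 and 99.3 ± 5.22 CPM, was not called. Cct3 was at 89.5 ± 10.5 and 107.5 ± 9.38 CPM with an edgeR adjusted p of 0.0330, and its call was lost without WT 1, 3 or 4 or OGT-deficient 2, 3 or 4, at adjusted p values of 0.0513 to 0.114.

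Both genes of tubulin mRNA autoregulation stayed below the threshold. Ttc5, whose product recognises nascent tubulin on the ribosome, was at 12.0 ± 0.850 CPM in WT (SD, n = 5) and 13.8 ± 1.18 CPM in OGT-deficient liver (SD, n = 4), with an edgeR adjusted p of 0.0693. Scaper, which recruits the deadenylase, was at 5.91 ± 1.07 and 6.30 ± 1.33 CPM. At an unadjusted p of 0.05 the count was 1 of 2, and DESeq2 called 0. With upper-quartile scaling Ttc5 passed, at an adjusted p of 0.0112, and without OGT-deficient 1 the log2 fold change of Scaper turned from 0.09 to -0.06.

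Modifying enzymes moved in both directions. Of 18 tested 9 rose and 6 fell, and the list had 25 genes, of which Svbp was not analysed here. Ttll7, which adds glutamate chains to the beta tubulin tail, rose from 1.40 ± 0.379 (SD, n = 5) to 8.22 ± 1.06 CPM (SD, n = 4), with a log2 fold change of 2.55 (SE 0.18) and an edgeR adjusted p of 2.65e-07. Agbl5, which removes branch-point glutamates, fell from 11.2 ± 1.17 to 4.97 ± 0.665 CPM. Both the alpha tubulin acetyltransferase Atat1 and the deacetylase Hdac6 fell, Atat1 from 14.0 ± 1.5 to 4.42 ± 0.295 CPM and Hdac6 from 22.8 ± 3.19 to 11.1 ± 0.508 CPM, with log2 fold changes of -1.66 (SE 0.11) and -1.04 (SE 0.11). Named after their values were seen, the tyrosine ligase Ttl rose from 8.42 ± 0.531 to 12.0 ± 0.799 CPM and the detyrosinase Vash1 from 5.11 ± 1.30 to 10.8 ± 2.42 CPM, with edgeR adjusted p values of 0.000484 and 0.000483.

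Of 21 microtubule-associated and plus-end proteins 12 rose and 0 fell. The called share was 57.1%, against 61.1% of all tested genes, of which 31.6% rose and 29.4% fell. Counts were the same at an unadjusted p of 0.05 and 11 and 0 in DESeq2. Over the other tests and scalings 10 to 16 genes were called. Clip2, a linker at growing plus ends, rose from 4.76 ± 1.31 (SD, n = 5) to 21.6 ± 2.26 CPM (SD, n = 4), with a log2 fold change of 2.17 (SE 0.17) and an edgeR adjusted p of 5.03e-07. Clasp1, a rescue factor of plus ends, rose from 17.1 ± 1.78 to 25.2 ± 2.23 CPM. Map2 and Dclk1, which bind along the lattice and are best known from neurons, rose at low levels, from 0.730 ± 0.241 to 2.81 ± 0.501 CPM and from 0.155 ± 0.0582 to 0.694 ± 0.295 CPM. Their log2 fold changes were 1.93 (SE 0.25) and 2.15 (SE 0.39).

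Among 9 tested stathmins, severing and depolymerizing proteins 3 rose and 2 fell. Stmn1, which holds free tubulin dimers, rose from 13.3 ± 3.86 (SD, n = 5) to 29.8 ± 5.02 CPM (SD, n = 4), with a log2 fold change of 1.16 (SE 0.20) and an edgeR adjusted p of 0.000313. Kif2c, a kinesin that depolymerizes ends, rose from 1.0 ± 0.522 to 3.95 ± 0.836 CPM and Fignl1, a fidgetin relative with a role in DNA repair, from 0.476 ± 0.237 to 3.84 ± 0.822 CPM. The katanin relative Katnal1 fell from 7.05 ± 0.802 to 3.07 ± 0.337 CPM with a log2 fold change of -1.20 (SE 0.14). Of 12 genes of gamma tubulin, its ring complex and the minor tubulins 4 rose and 3 fell. Tubgcp2, a core ring subunit, rose from 14.0 ± 0.614 to 25.1 ± 1.38 CPM and the centriolar epsilon tubulin Tube1 from 2.17 ± 0.473 to 4.13 ± 0.680 CPM. The small ring proteins Mzt1 and Mzt2 fell from 25.5 ± 2.87 to 13.1 ± 2.03 CPM and from 22.9 ± 1.40 to 11.3 ± 0.937 CPM, with log2 fold changes of -0.96 (SE 0.12) and -1.02 (SE 0.087).

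**Figure D4:**
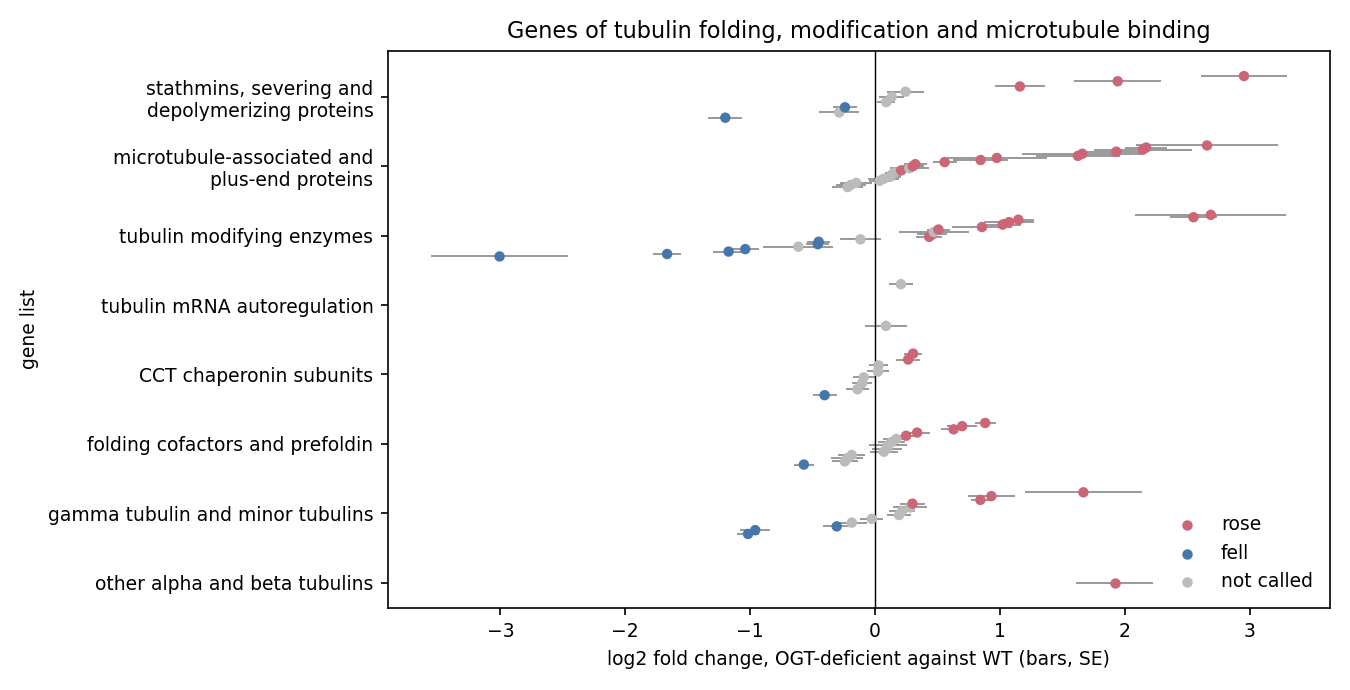
Log2 fold change with SE of the 85 tested genes in 8 lists of tubulin and microtubule genes, coloured by the adjusted p threshold of 0.05. The CCT subunits lie between -0.40 (Cct4) and 0.31 (Cct8) and the folding cofactors and prefoldin between -0.57 (Tbccd1) and 0.88 (Tbcb), the 12 called microtubule-associated proteins all lie to the right, and the modifying enzymes spread to both sides, from Ttll8 at -3.01 to Ttll10 at 2.69, 2 genes picked after their values were seen.

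Summed markers of 6 of 12 cell types lay higher in every OGT-deficient library than in every WT library, those of 2 lay lower and those of 4 overlapped. The 9 cholangiocyte markers, of which 8 rose, 1 fell and none was at 0, summed to 49.5 to 79.4 CPM in WT libraries. In OGT-deficient libraries they summed to 159 to 271 CPM. OGT-deficient 2 was the lowest of its group for that sum, for Tuba1c and for Tubb2a, Tubb2b, Tubb4b, Tubb5 and Tubb6. The same library was also the lowest of its group for the sums of recruited macrophage and dividing cell markers. OGT-deficient 1, with the highest cholangiocyte sum, was the lowest of its group for Tuba1a, Tuba1b, Tuba4a and Tuba8. The 7 markers of dividing cells all rose, from summed levels of 8.43 to 28.8 CPM to 64.9 to 87.7 CPM. WT 4 had the lowest sum in WT and was the lowest WT library for Tubb2a, Tuba1a, Tuba1b and Tubb4b. Tuba1c was lowest in WT 1, Tuba4a, Tuba8, Tubb5 and Tubb6 were lowest in WT 5, and Tubb2b was highest in WT 4. WT 4 also had the most non-unique alignments per assigned count, at 1.02. Stellate cell and myofibroblast markers summed to 136 to 332 and 681 to 1011 CPM with 8 of 9 rising. OGT-deficient 4 was the lowest of its group for that sum and the highest for Tubb2a, at 501 CPM, whereas WT 4 was the lowest in WT for both. Recruited macrophage markers summed to 23.1 to 33.4 and 99.6 to 147 CPM with 6 of 7 rising. Kupffer cell markers overlapped, at 336 to 473 and 311 to 577 CPM with 1 of 5 rising, as did endothelial markers, at 322 to 433 and 181 to 348 CPM with 3 of 6 falling. T and B cell markers, at 3.95 to 5.65 and 2.70 to 5.34 CPM, and platelet markers, at 3.96 to 6.66 and 5.09 to 6.78 CPM, overlapped too. Erythroid markers were lower, at 6.53 to 10.2 and 2.55 to 4.92 CPM, like the hepatocyte markers given above. The part of these cells in the tubulin differences was not tested.

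For the isotypes known from brain and cilia, 2 further lists apply. Of 8 neuron markers Snap25, Elavl3, Elavl4, Nefl and Nefm were at 0 in all libraries, and the sum of the list was 17.4 to 21.7 CPM for WT, against 24.9 to 36.4 CPM for OGT-deficient liver, with 2 of 3 tested genes rising. OGT-deficient 2 was the highest library for that sum and OGT-deficient 1 the lowest of its group. The 7 motile ciliated cell markers summed to 1.58 to 2.36 and 5.22 to 10.4 CPM, with 2 of 4 tested genes rising. For these markers OGT-deficient 1 was the highest library and OGT-deficient 2 the lowest of its group. Whether such cells bear on the tubulin levels was not tested.

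Some genes followed a tubulin closely over the 9 libraries, measured as the root-mean-square difference in log2 CPM after centring each gene on its own mean. Closest to Tubb2a were Cd63, a tetraspanin of late endosomes, at 0.324, then Igsf1 and Spire2 at 0.335 and 0.344. Cd63 stood at 10.8 ± 4.20 CPM in WT (SD, n = 5) and 207.0 ± 42.8 CPM in OGT-deficient liver (SD, n = 4). Nothing tested came as close to Tubb2b, where Cfap53, a protein of motile cilia, lay at 0.983, followed by Pkp1 and Gpx2. For Tuba8 the closest were Lrr1, Fam131c and Uap1l1 at 0.270 to 0.276. Lrr1 lay near the floor, at 0.0169 ± 0.0232 CPM in WT (SD, n = 5) and 0.399 ± 0.132 CPM in OGT-deficient liver (SD, n = 4). At such levels the prior count of 2 shrinks the difference that enters the measure. The closest to Tubb4b were Mturn, Rnd2 and Lmcd1 at 0.109 to 0.118, and to Tuba1b Cdt1, S1pr3 and Ttc27 at 0.115 to 0.142. Tubb5 was followed within 0.0704 to 0.0859 by Sema4b, Bcdin3d and Pcbd2, and Tuba4a by Gtf2ird1, Tmem109 and Cars at 0.104 to 0.116. The closest to Tuba1c were Ifi27, Gskip and Lrrc28, and to Tubb6 Csnk1e, Tacc2 and Zfp941. Both groups enter this measure, so a gene with a similar difference between them counts as close.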

How the data were processed

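The authors deposited raw read counts per gene symbol for each library. The submitters' processing notes name TopHat2 2.1.0, HTSeq 0.9.1 and the build mm10 (GRCm38); neither annotation release nor strand use is given in the sources used here. The 5 closing lines of each file name no gene and were dropped before scaling; among uniquely aligned reads they held 8.95 to 10.7% outside genes and 1.78 to 2.17% over several genes. Library totals were 32337861 to 54130901 counts, so that 3 counts equal 0.0554 to 0.0928 CPM. Within groups, 16 library pairs gave chi-square per degree of freedom of 23.9 to 135.0, so none was treated as a duplicate.

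Differences were fitted with edgeR 4.0.16 in R 4.3.3 (filterByExpr, TMM scaling, quasi-likelihood F test on group alone, Benjamini-Hochberg over all 14104 genes tested, threshold 0.05). The procedure was also run on simulated data in which few genes changed, unlike here, so the scaling was not tested under a broad change. CPM use TMM-scaled library sizes, and log2 CPM for the likeness measure a prior count of 2. RPKM divide CPM by the longest GENCODE M21 transcript. Shared stretches were matched on both strands, and coding sequences were aligned globally with Biopython 1.88, since protein sequences were not used here. Promoters come from RefSeq.

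The tubulin genes, gene lists and markers were chosen with earlier results of these data known. Named genes were every tubulin above, up to 4 tested genes of each list with the smallest p, every gene that alone went in its direction, and the 3 genes most like each tubulin; some of these results are not reported here. Alternatives were DESeq2 size factors, upper-quartile factors, no filter, DESeq2 1.42.0, the replicate number as a block, leaving out each library, 4 other lengths and 2 other stretch lengths. Figures used matplotlib 3.10.9.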

Additional observations from a re-analysis of the deposited data

Results flagged for a closer look

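In 6 of 100 groups of libraries tested, a library lay far from the rest of its group by Dixon's criterion, which chance alone gives in about 1 of 20 groups. No tubulin gene named at the opening was among them. In WT, Tubgcp2 was lowest in library 3 at 12.9 CPM, Tbccd1 in library 1 at 20.4 CPM and Pfdn2 in library 1 at 37.1 CPM, and Agbl5 was highest in library 4 at 13.3 CPM. In OGT-deficient liver, Tubb4a was highest in library 3 at 2.63 CPM and Atat1 lowest in library 1 at 3.98 CPM. In each of these genes the 2 groups still did not overlap.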

How the results depend on the processing

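The number of genes called was 8614, and 7960 to 8472 with a library left out. Tubulin genes past the threshold, a description only, numbered 8 to 9 and genes of the microtubule lists 45 to 47 in those fits, against 9 and 49. Other tests and scalings gave 7869 to 9104 genes, 9 to 10 tubulins and 45 to 58 list genes. The replicate number as a block gave 7869 genes and 9 tubulins. Deviations of same-numbered libraries correlated at 0.0525, -0.103, 0.0220 and 0.104, so pairs were not assumed. A small effect shared by paired mice could be missed by these correlations. Every log2 fold change of a tubulin kept its sign. The composition moved with the length. Tuba4a in WT was 62.9% by reads alone, 34.0 and 41.6% per unshared stretches of 50 and 100 bases and 48.4% per union of exons; in OGT-deficient liver it was 44.2, 20.9, 26.6 and 30.6%. Tubb2a in WT was 8.92, 13.2, 13.9 and 13.8%, and in OGT-deficient liver 61.1% per unshared 100 bases and 62.3% per union of exons. Tubb5 in WT was 47.2, 21.2 and 27.6% by reads and per unshared 50 and 100 bases, and in OGT-deficient liver 14.8, 4.98 and 6.46%. The ratio of beta to alpha in those 3 was 1.11, 0.735 and 0.717 in WT and 2.20, 1.71 and 1.74 in OGT-deficient liver. With a library left out, shares in WT and OGT-deficient liver were 51.4 to 53.8 and 34.8 to 35.0% for Tuba4a, 10.6 to 11.6 and 54.5 to 57.8% for Tubb2a, and 34.7 to 36.2 and 9.0 to 10.2% for Tubb5, and the ratio 1.30 to 1.38 and 2.57 to 3.07. The median share of stretches found in another gene was 49.2% at 50 bases, 42.1% at 75 and 33.8% at 100. Scaper, at -0.0593 without OGT-deficient 1 and up to 0.20 with other libraries left out, was called in no such fit. Depth limits Tubb2b in WT, whose 0 to 5 reads per library lie near the 3 reads that a count of 0 allows, a limit that covers counting error only.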
